A study of Mus musculus with 10 samples.

Results

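The TNF superfamily was examined as 40 genes, 15 ligands and 25 receptors, among 19505 genes measured on 10 single-colour arrays. The members were all measured genes named Tnfsf or Tnfrsf, together with Lta, Ltb, Ltbr, Fas, Fasl, Cd40, Cd40lg, Cd70, Ngfr, Eda, Edar, Eda2r and Relt. The receptors of TNF itself, Tnfrsf1a and Tnfrsf1b, were left out. Cd27, which the same rule names, was not analysed here, and neither were the ligand genes Tnfsf12 and Tnfsf13. Each of the 40 had 1 probe set. RNA came from small intestine organoids of BALB/c mice, self-organising epithelial cultures grown in Matrigel, and for 48 h every culture, controls included, received recombinant murine TNF at 20 ng/ml. Pegtarazimod, a PEGylated peptide that blocks the classical complement pathway and myeloperoxidase, was given with the TNF at 5 mg/ml to 5 of the cultures, and the remaining 5 were given PEG at 2.625 mM as the vehicle. The series describes the 5 samples of a group as biological replicates without stating what differed between them, so p-values measure the spread between these samples. No cultures without TNF were analysed here.

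Ligands of this superfamily are trimeric proteins on the cell surface or shed from it, and their receptors assemble around them. Receptors with a cytoplasmic death domain, such as Fas and the TRAIL receptor Tnfrsf10b, can start caspase-driven cell death. Most others bind TRAF adaptors and feed the canonical or noncanonical NF-kB pathway, and decoy receptors take up ligand without such signalling. In the gut epithelium the lymphotoxin beta receptor and RANK are known for shaping lymphoid follicles and M cells, and TROY (Tnfrsf19) is known as a Wnt-dependent gene of crypt stem cells.

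With pegtarazimod 5 of the 40 members passed the test, 3 higher and 2 lower. The stem cell receptor gene Tnfrsf19 was 2.05-fold lower and Tnfsf10, which encodes the death ligand TRAIL, was 1.69-fold lower. The lymphotoxin beta receptor gene Ltbr was 1.47-fold higher, the B cell survival factor gene Tnfsf13b (BAFF) 1.59-fold higher and the death receptor gene Fas 1.29-fold higher. Differences are in log2 expression, pegtarazimod minus vehicle, and were called by limma over all 19505 genes at an adjusted p below 0.05 (Benjamini-Hochberg). The 5 members are 12.5% of the superfamily, and of all genes 4.89% passed, with 2.50% of all genes higher and 2.39% lower. The groups did not overlap for 3 members (7.5%), close to the 6.71% of all genes, and 10 of the 40 members had an unadjusted p below 0.05, against 19.0% of all genes. The median difference was -0.06 over the members and 0.00285 over all genes.

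**Figure D1:**
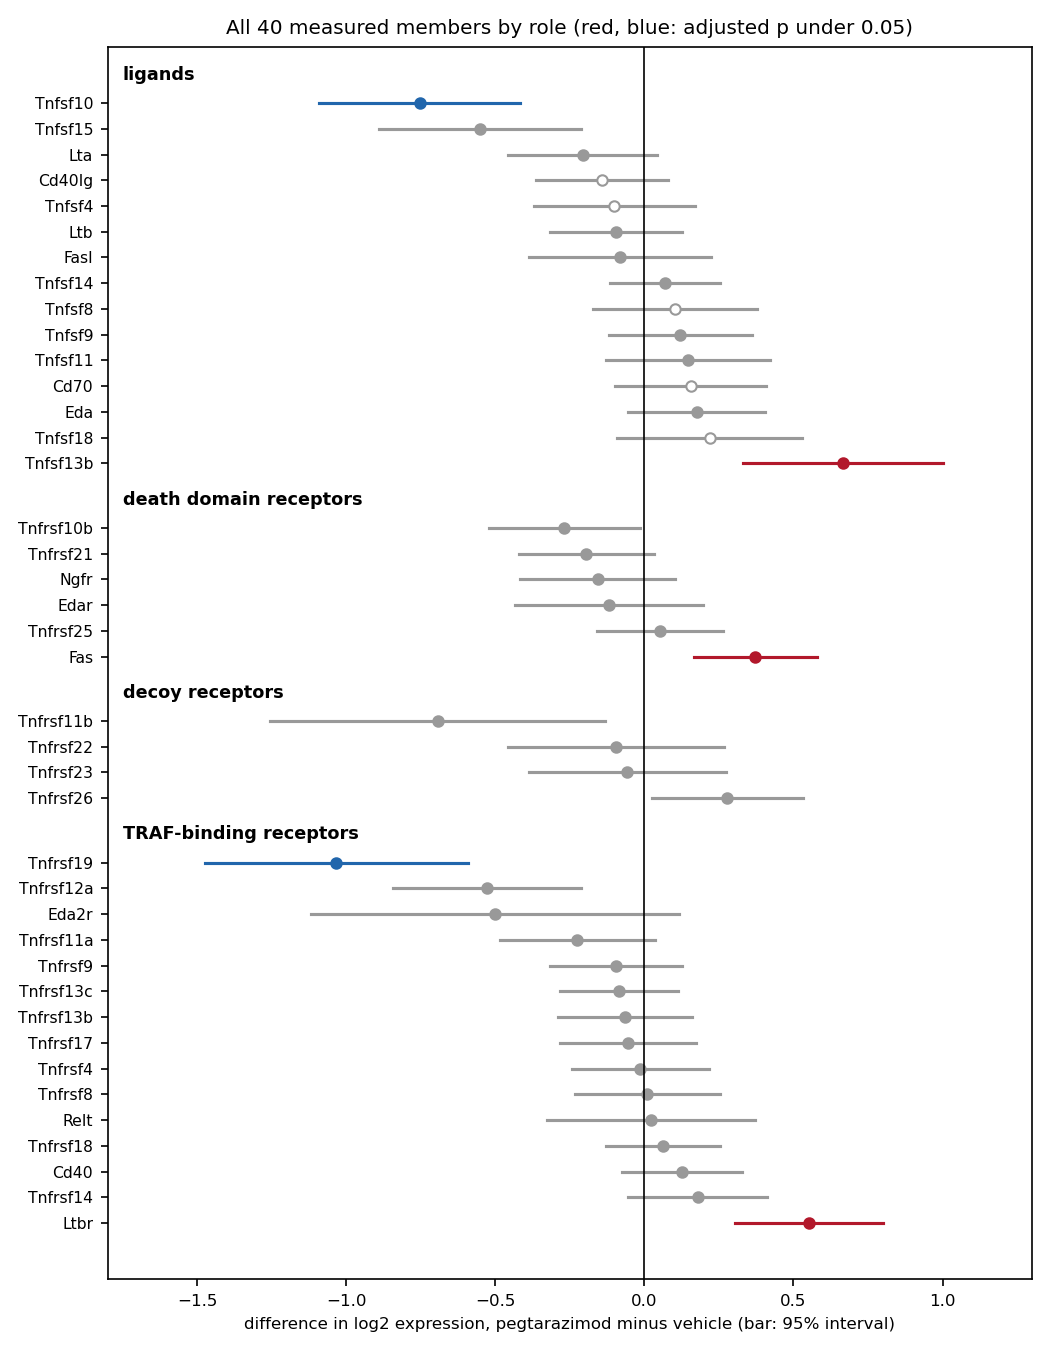
Difference in log2 expression (horizontal axis, pegtarazimod minus vehicle) for each of the 40 members, grouped by role, with its 95% confidence interval from limma; red and blue mark adjusted p below 0.05, higher and lower, and open points mark members below the lower quartile of every array in both groups. Tnfsf10 and Tnfrsf19 lie lowest among ligands and TRAF-binding receptors, and Tnfsf13b, Fas and Ltbr highest in their classes.

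The arrays had been normalised together, and the lower quartile of each lay between 3.84 and 3.90 on the log2 scale. The epithelial markers (Epcam, Cdh1, Krt8, Krt18, Krt20, Vil1, Cdx2) had a mean of 10.16 to 10.27 in vehicle and 10.22 to 10.40 in pegtarazimod, and none of the 7 passed over the 10 arrays. Single markers differed in opposite directions, Krt20 by 0.72 and Krt18 by -0.47 (limma adjusted p = 0.151 and 0.140). Within replicates 1 and 2 Krt20 (1.18), Krt18 (-0.53) and Vil1 (0.46) passed (limma adjusted p = 0.00423, 0.0441 and 0.0494). Of 25 measured markers of leukocytes, fibroblasts and endothelium, 9 were dimmer than the lower quartile of all arrays in both groups, and none of the 25 passed. Of all 19505 genes 4579 were as dim. By list these were 1 of 4 general leukocyte, 1 of 5 T and NK cell and 2 of 3 B cell markers. The others were 1 of 4 myeloid, 2 of 5 fibroblast and 2 of 4 endothelial markers. The fibroblast gene Col1a1, which was not among the 9, had means of 6.34 in vehicle and 6.48 in pegtarazimod. Replicates 1 and 2 stood apart from replicates 3 to 5 in each group over all genes, for which the labels name no batch, so differences within these subsets are given for the members that passed. Within vehicle, replicates 1 and 2 lay both below or both above all of replicates 3 to 5 for 9 of the 40 members (27.2% of all genes). Within pegtarazimod they did so for 13 members (32.5% of all genes), and in both groups for Eda2r, Tnfrsf8 and Tnfsf13b.

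The promoters of the 5 members that passed are shown because these are the genes whose transcripts changed. The sequences are RefSeq's on GRCm38.p6, from 250 bases before to 50 after a start site, on the gene's strand and 5′ to 3′, and 31 of the 40 members had an entry. Capitals mark letters of the motifs searched on both strands. These were the kB consensus, the TCF/LEF core CTTTGA and the AP-1 site TGANTCA, which do not overlap here. Tnfrsf19 has 2 start sites, at chr14:61046806-61047105 and chr14:61037938-61038237 (minus strand). Tnfsf10 lies at chr3:27316827-27317126 (plus), Ltbr at chr6:125313836-125314135 (minus), Tnfsf13b at chr8:10006217-10006516 (plus, the first of 2 windows that share 134 bases) and Fas at chr19:34290409-34290708 (plus).
Tnfrsf19, first: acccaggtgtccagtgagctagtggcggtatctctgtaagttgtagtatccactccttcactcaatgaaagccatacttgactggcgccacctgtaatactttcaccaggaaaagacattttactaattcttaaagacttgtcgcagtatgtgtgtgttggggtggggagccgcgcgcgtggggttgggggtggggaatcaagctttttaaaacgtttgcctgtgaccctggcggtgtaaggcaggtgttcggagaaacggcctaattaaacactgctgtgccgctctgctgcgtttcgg
Tnfrsf19, second: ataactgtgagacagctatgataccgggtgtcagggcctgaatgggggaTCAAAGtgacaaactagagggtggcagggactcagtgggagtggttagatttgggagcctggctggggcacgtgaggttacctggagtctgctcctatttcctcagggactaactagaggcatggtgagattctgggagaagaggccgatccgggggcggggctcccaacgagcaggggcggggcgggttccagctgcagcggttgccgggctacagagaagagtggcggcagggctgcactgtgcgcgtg
Tnfsf10: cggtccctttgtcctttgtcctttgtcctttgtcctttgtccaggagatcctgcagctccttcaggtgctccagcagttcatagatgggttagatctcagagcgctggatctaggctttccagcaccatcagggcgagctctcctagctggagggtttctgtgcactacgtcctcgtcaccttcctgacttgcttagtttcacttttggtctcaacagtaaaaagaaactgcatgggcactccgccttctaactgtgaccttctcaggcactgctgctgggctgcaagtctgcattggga
Ltbr: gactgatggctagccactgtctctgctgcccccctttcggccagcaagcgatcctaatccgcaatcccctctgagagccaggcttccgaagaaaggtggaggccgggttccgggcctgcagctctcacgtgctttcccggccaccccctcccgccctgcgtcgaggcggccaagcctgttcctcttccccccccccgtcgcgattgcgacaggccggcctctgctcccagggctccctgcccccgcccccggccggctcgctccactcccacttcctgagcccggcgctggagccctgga
Tnfsf13b: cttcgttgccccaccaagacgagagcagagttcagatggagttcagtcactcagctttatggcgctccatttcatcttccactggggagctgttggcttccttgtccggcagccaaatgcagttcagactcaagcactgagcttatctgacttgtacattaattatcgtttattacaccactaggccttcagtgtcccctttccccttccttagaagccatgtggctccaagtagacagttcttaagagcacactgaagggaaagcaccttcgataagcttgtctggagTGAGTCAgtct
Fas: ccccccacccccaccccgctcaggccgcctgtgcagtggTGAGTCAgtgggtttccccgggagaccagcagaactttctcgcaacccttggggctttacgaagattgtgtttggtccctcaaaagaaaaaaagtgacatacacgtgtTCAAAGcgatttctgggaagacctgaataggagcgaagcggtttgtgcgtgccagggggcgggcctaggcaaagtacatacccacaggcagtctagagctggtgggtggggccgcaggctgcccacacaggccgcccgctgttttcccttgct
The TCF/LEF core stood on the opposite strand at 201 bases before the second start of Tnfrsf19 and 103 bases before that of Fas, and 16.0% of all 32851 promoters hold it. The AP-1 letters TGAGTCA stood 211 bases before the start of Fas and, in Tnfsf13b, at base 40 after the first start, which is 127 bases before the second, against 7.81% of all promoters with the motif. The kB consensus was not among the letters of the windows shown, and 8.46% of all promoters hold it. The Ltbr window was 70.0% G and C with 23 CpG pairs, the Tnfsf10 window 52.3% with 6. A match is a description of these letters and no evidence of binding.

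**Figure D2:**
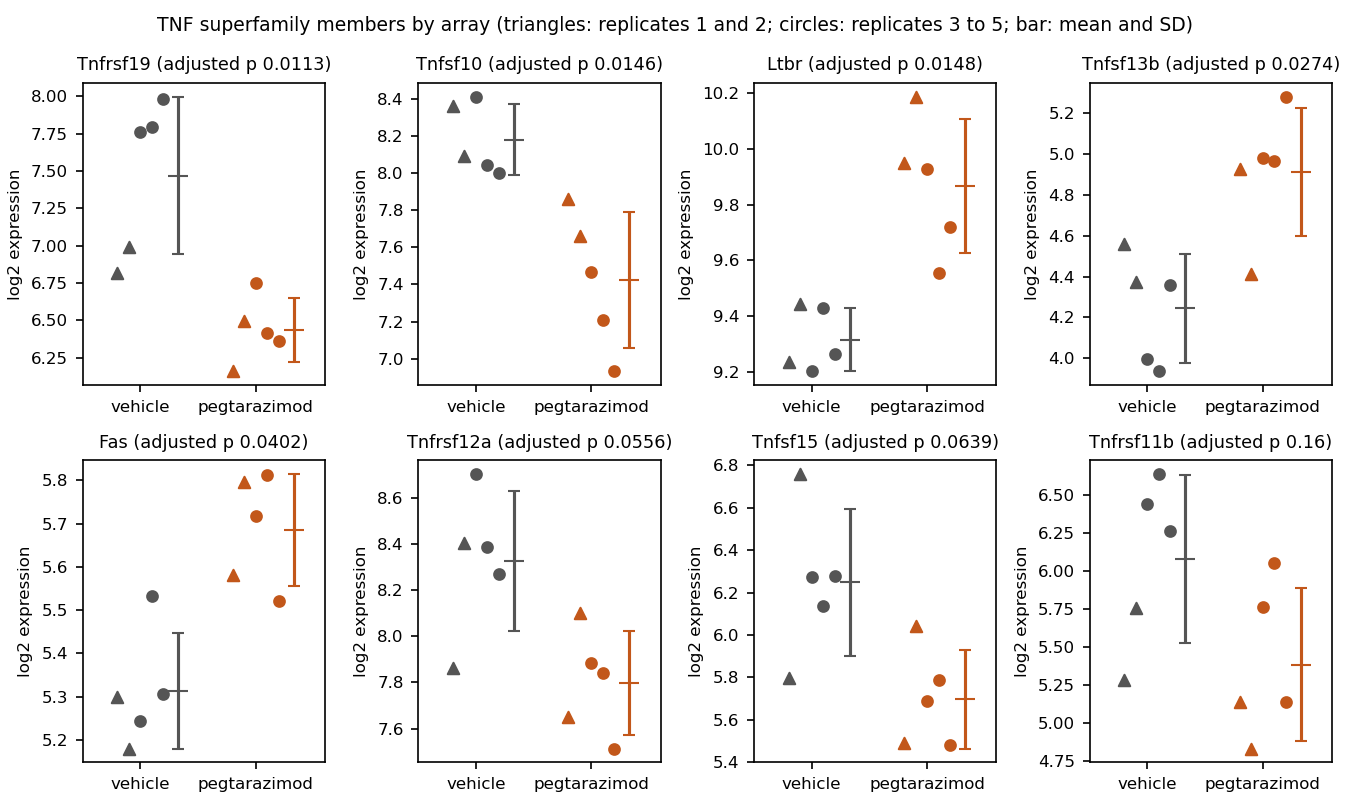
Log2 expression on each array (vertical axes, each panel on its own scale) for the 5 members that passed and the 3 with the next smallest p; triangles are replicates 1 and 2, circles replicates 3 to 5, and the bar beside them the mean and SD of 5 arrays. The groups do not overlap for Tnfrsf19, Tnfsf10 and Ltbr and overlap in the other 5 panels.

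Tnfrsf19, an orphan receptor that binds TRAF adaptors, had the largest difference of the 40. Vehicle replicates 1 to 5 read 6.82, 6.99, 7.76, 7.80 and 7.99, and pegtarazimod replicates 6.16, 6.50, 6.75, 6.41 and 6.36. All pegtarazimod arrays lay below all vehicle arrays, and the vehicle group itself was split, with replicates 1 and 2 lowest. The mean fell from 7.47 ± 0.53 to 6.44 ± 0.21 (SD, n = 5 per group), a difference of -1.03 ± 0.21 (SE; limma adjusted p = 0.0113). It was -0.58 within replicates 1 and 2 (limma adjusted p = 0.0642) and -1.34 within replicates 3 to 5 (limma adjusted p = 1.46e-04), and the difference between the subsets did not pass (limma adjusted p = 0.378). Of 5 stem cell markers, Lgr5, Ascl2, Axin2 and Rgmb fell and Smoc2 differed by -0.20, and their summed log2 level ran from 44.3 to 45.7 in vehicle and from 36.5 to 40.9 in pegtarazimod. The part of these cells in the Tnfrsf19 difference was not tested. In RNA from whole cultures, fewer cells of a type and less RNA per cell cannot be told apart.

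Among the ligands 1 of 15 fell and 1 rose. Tnfsf10, the gene of the apoptosis-inducing ligand TRAIL, read 8.36, 8.09, 8.41, 8.04 and 8.0 on vehicle arrays 1 to 5 and 7.86, 7.66, 7.47, 7.21 and 6.93 on pegtarazimod arrays. The highest pegtarazimod array was below the lowest vehicle array, and the pegtarazimod arrays were spread more widely. The mean fell from 8.18 ± 0.19 to 7.43 ± 0.37 (SD, n = 5), by 0.75 ± 0.16 on the log2 scale (SE; limma adjusted p = 0.0146). The difference was -0.46 within replicates 1 and 2 (limma adjusted p = 0.218) and -0.95 within replicates 3 to 5 (limma adjusted p = 0.0041), with no call for the difference between them (limma adjusted p = 0.700).

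The receptors of TRAIL did not pass. Tnfrsf10b, the signalling death receptor for TRAIL in mice, differed by -0.27, with a 95% interval of -0.52 to -0.02 (limma adjusted p = 0.233). Its vehicle arrays ran from 7.45 to 7.72 and its pegtarazimod arrays from 7.05 to 7.60, so the groups overlapped. The decoy receptors Tnfrsf22 and Tnfrsf23 differed by -0.10 (interval -0.46 to 0.27) and -0.06 (interval -0.39 to 0.27). Tnfrsf23 differed by 0.42 within replicates 1 and 2 and by -0.38 within replicates 3 to 5, and neither value passed (limma adjusted p = 0.217 and 0.209). Tnfrsf26, their relative, differed by 0.28 (limma adjusted p = 0.217), with vehicle arrays from 4.32 to 4.73 and pegtarazimod arrays from 4.58 to 5.10. Tnfrsf26, Tnfrsf22 and Tnfrsf23 are neighbours in the genome and close relatives, so their probes may take up signal from each other.

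Tnfsf13b encodes BAFF, a ligand known for keeping B cells alive. Its vehicle arrays read 4.56, 4.37, 4.0, 3.94 and 4.36 and its pegtarazimod arrays 4.93, 4.41, 4.98, 4.96 and 5.28. The groups overlapped through pegtarazimod replicate 2, which lay below vehicle replicate 1, and the vehicle values were close to the lower quartile of the arrays. The mean rose from 4.25 ± 0.27 to 4.91 ± 0.31 (SD, n = 5), by 0.67 ± 0.16 (SE; limma adjusted p = 0.0274). The difference was 0.20 within replicates 1 and 2 (limma adjusted p = 0.687) and 0.97 within replicates 3 to 5 (limma adjusted p = 0.0037), with no call for the difference between the subsets (limma adjusted p = 0.431). The call ended without vehicle 3 (limma adjusted p = 0.0825) and also without vehicle 4 or pegtarazimod 1, 3 or 5.

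BAFF's receptors, which are known from B lineage cells, differed little. TACI (Tnfrsf13b) differed by -0.07 (interval -0.29 to 0.16), the BAFF receptor Tnfrsf13c by -0.08 (interval -0.28 to 0.11) and BCMA (Tnfrsf17) by -0.05 (interval -0.28 to 0.17). None of the 3 passed, and the groups overlapped in each. Of 3 measured B cell markers, Cd79b and Ms4a1 lay below the lower quartile in both groups. None of 4 myeloid markers passed, with a summed log2 level of 14.9 to 15.9 in vehicle and 15.3 to 16.7 in pegtarazimod. None of 5 T and NK cell markers passed either. Their summed level was 19.79 to 20.43 in vehicle and 20.44 to 21.37 in pegtarazimod, ranges that did not overlap but nearly touched. Singly they differed by 0.05 (Cd3e), 0.17 (Cd3d), -0.04 (Cd2), 0.20 (Cd5) and 0.30 (Ncr1). Of them Ncr1 alone had groups that did not overlap (6.71% of all genes), and it lay below the lower quartile in both groups. The part of leukocytes in the Tnfsf13b difference was not tested.

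Ltbr, the receptor of lymphotoxin and LIGHT that feeds the noncanonical NF-kB pathway, rose. Vehicle arrays 1 to 5 read 9.23, 9.45, 9.20, 9.43 and 9.27 and pegtarazimod arrays 9.95, 10.19, 9.93, 9.55 and 9.72. All pegtarazimod arrays were above all vehicle arrays, with pegtarazimod 4 nearest to them. The mean rose from 9.32 ± 0.11 to 9.87 ± 0.24 (SD, n = 5), by 0.55 ± 0.12 (SE; limma adjusted p = 0.0148). It differed by 0.73 within replicates 1 and 2 (limma adjusted p = 0.0156) and by 0.43 within replicates 3 to 5 (limma adjusted p = 0.0992), and was the member called in the first subset. Without vehicle 3 its adjusted p by limma was 0.0503. Of 5 enterocyte markers Fabp1 and Fabp2 rose, and their summed log2 level ran from 41.0 to 44.3 in vehicle and from 45.6 to 52.4 in pegtarazimod, whose part in the Ltbr difference was not tested.

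The transcripts of its ligands did not pass. Ltb, which anchors lymphotoxin in the membrane, differed by -0.10 (interval -0.32 to 0.13), and Lta by -0.21 (interval -0.46 to 0.04). Tnfsf14 (LIGHT), a ligand shared by Ltbr and the receptor Tnfrsf14, differed by 0.07 (interval -0.12 to 0.25), and Tnfrsf14 by 0.18 (interval -0.06 to 0.41). In all 4 genes the groups overlapped.

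Fas was the death receptor gene that rose. It read 5.30, 5.18, 5.24, 5.53 and 5.31 on vehicle arrays 1 to 5 and 5.58, 5.80, 5.72, 5.81 and 5.52 on pegtarazimod arrays. The groups overlapped at vehicle 4 and pegtarazimod 5 and were otherwise apart. The mean rose from 5.31 ± 0.13 to 5.69 ± 0.13 (SD, n = 5), by 0.37 ± 0.10 (SE; limma adjusted p = 0.0402). The difference was 0.45 within replicates 1 and 2 and 0.32 within replicates 3 to 5, and neither passed (limma adjusted p = 0.116 and 0.222). Its call held in 2 of 10 fits that each left out an array, those without vehicle 4 or pegtarazimod 5, and reached a limma adjusted p of 0.110 without vehicle 3. Fasl, the ligand of Fas and mainly a product of lymphocytes, differed by -0.08 (interval -0.39 to 0.22).

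The remaining death domain receptors did not pass. Tnfrsf21 (DR6) differed by -0.20, by -0.45 within replicates 1 and 2 and by -0.02 within replicates 3 to 5. Ngfr, the low-affinity neurotrophin receptor, differed by -0.16 and the ectodysplasin receptor Edar by -0.12. Tnfrsf25 (DR3), the receptor of Tnfsf15, differed by 0.05 (interval -0.16 to 0.26). Of the 6 genes in this class 4 had a negative difference and Fas alone passed.

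Tnfrsf12a, Tnfsf15 and Tnfrsf11b had the next smallest p-values and all lower means. Tnfrsf12a, the TWEAK receptor Fn14 known from injured epithelium, read 7.86, 8.41, 8.70, 8.38 and 8.27 in vehicle and 7.65, 8.10, 7.88, 7.84 and 7.51 in pegtarazimod. Vehicle 1 fell within the pegtarazimod range, and the other vehicle arrays lay above it. The difference was -0.53 ± 0.15 (SE; limma adjusted p = 0.0556), -0.26 within replicates 1 and 2 and -0.71 within replicates 3 to 5, and it passed within the latter (limma adjusted p = 0.0473).

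Tnfsf15 (TL1A), a ligand known for its links to intestinal inflammation, read 5.80, 6.76, 6.27, 6.14 and 6.28 in vehicle and 5.49, 6.04, 5.69, 5.79 and 5.48 in pegtarazimod. As with Tnfrsf12a, vehicle 1 was the array that overlapped. The difference was -0.55 ± 0.16 (SE; limma adjusted p = 0.0639), with -0.51 and -0.58 in the subsets. Tnfrsf12a and Tnfsf15 passed without vehicle 1 (limma adjusted p = 0.0149 and 0.0234), under which the groups no longer overlapped.

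Tnfrsf11b encodes osteoprotegerin, the soluble decoy of the RANK ligand. It read 5.28, 5.76, 6.44, 6.64 and 6.26 in vehicle and 5.14, 4.83, 5.76, 6.05 and 5.13 in pegtarazimod. The groups overlapped, and in each group the pair of replicates 1 and 2 had a lower mean than replicates 3 to 5. The difference was -0.69 ± 0.26 (SE; limma adjusted p = 0.160), at -0.53 for replicates 1 and 2 and -0.80 for replicates 3 to 5. It passed in a fit that took these subsets as a block (limma adjusted p = 0.0125).

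RANK itself and its ligand did not pass. Tnfrsf11a (RANK), the receptor through which M cells are induced, differed by -0.22 (interval -0.48 to 0.04), with vehicle arrays from 7.77 to 8.30 and pegtarazimod arrays from 7.48 to 7.98. Tnfsf11 (RANKL) differed by 0.15 (interval -0.13 to 0.42). Of 6 M cell markers 1 fell, Marcksl1, and Gp2 lay below the lower quartile in both groups.

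Members known mainly from lymphocytes and antigen-presenting cells showed small differences. The ligand genes Cd40lg, Cd70, Tnfsf4 (OX40L), Tnfsf8 (CD30L) and Tnfsf18 (GITRL) were dimmer than the lower quartile on all arrays, by the means of both groups, so their folds are uncertain. The costimulatory receptors Tnfrsf4 (OX40), Tnfrsf8 (CD30), Tnfrsf9 (4-1BB) and Tnfrsf18 (GITR) differed by -0.01, 0.01, -0.10 and 0.06, and Cd40 by 0.12. Tnfsf9, the ligand of Tnfrsf9, differed by 0.12 and the orphan receptor gene Relt by 0.02. In the ectodysplasin branch, which is known from skin appendages, Eda differed by 0.18 and Eda2r by -0.50. Eda2r had the largest spread of all members, with an SD of 0.67 in pegtarazimod, where the arrays ran from 3.42 to 5.20, and an interval of -1.12 to 0.12. Of the 35 members that did not pass, 28 had a 95% interval inside ±0.5 on the log2 scale (1.41-fold). Those outside it were Tnfrsf11b, Eda2r, Tnfsf15, Tnfrsf12a, Tnfrsf10b, Tnfrsf26 and Tnfsf18.

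**Figure D3:**
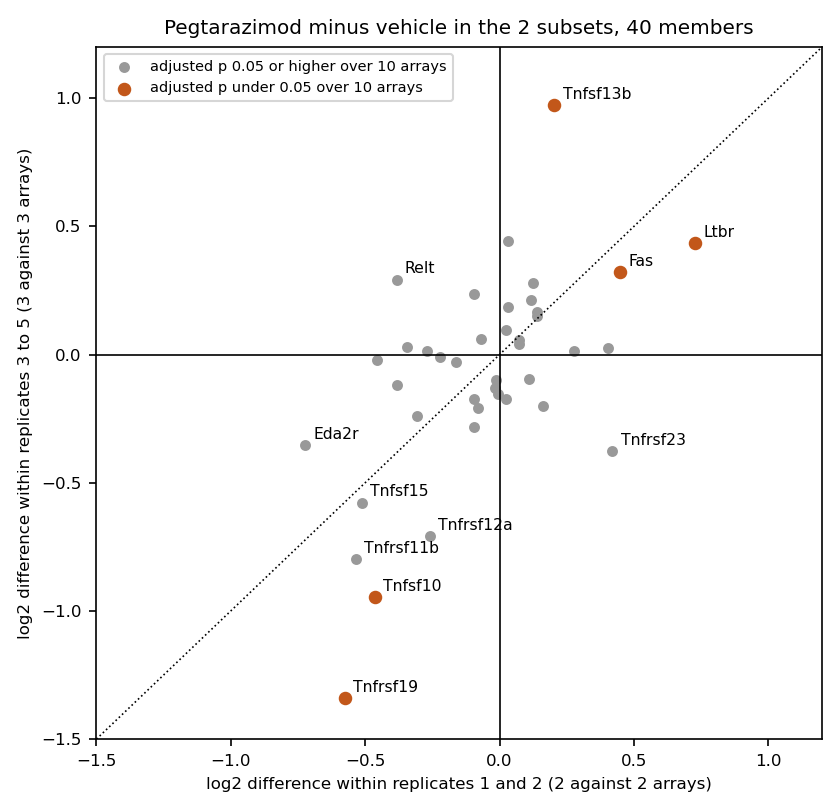
Log2 difference (pegtarazimod minus vehicle) of the 40 members within replicates 1 and 2 (horizontal axis) and within replicates 3 to 5 (vertical axis); the dotted line marks equal values and orange points the members with adjusted p below 0.05 over 10 arrays. All 5 orange points have the same sign on both axes, and Tnfsf13b and Tnfrsf19 lie far from the line. The orange points were selected over the same 10 arrays, which favours equal signs, so this is no replication.

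Over the 40 members 31 (77.5%) had the same sign in both subsets, against 62.2% of all genes. In replicates 1 and 2 Ltbr passed (6.30% of all genes did), and in replicates 3 to 5 Tnfrsf19, Tnfsf10, Tnfsf13b and Tnfrsf12a passed (3.34% of all genes did). The difference between the subsets passed for 0 of 40 members by limma (0.0256% of all genes), with 5 at an unadjusted p below 0.05 (Tnfrsf23, Tnfrsf19, Tnfsf13b, Tnfrsf21 and Relt). The share of all genes at such an unadjusted p was not counted, so those 5 cannot be set against it. With the subsets as a block 8 members passed (9.33% of all genes), and with the replicate number as a block the same 8 (8.23% of all genes). The count of 5 members that passed over all arrays was 2 without vehicle 3 (Tnfrsf19 and Tnfsf10). It was 3 without pegtarazimod 1 or without pegtarazimod 3 (those and Ltbr). The count over all 19505 genes also fell, from 954 to 437 without vehicle 3, 552 without pegtarazimod 1 and 895 without pegtarazimod 3.

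The adaptors, ligases and kinases that act below these receptors were measured for 25 of 28 listed genes. Of these 3 fell and 0 rose by limma (12.0% against 4.89% of all genes). At an unadjusted p below 0.05 were 8 of the 25 (32% against 19.0% of all genes). Of those 2 were higher, Traf5 by 0.50 and Tradd by 0.23 (limma adjusted p = 0.102 and 0.227). The list was chosen with earlier results of these data known, so its share is not an independent comparison with all genes. Tnfaip3 (A20), a ubiquitin-editing brake on NF-kB, read 8.93, 8.67, 9.28, 9.20 and 8.97 in vehicle and 7.37, 6.85, 7.96, 8.06 and 7.56 in pegtarazimod. The groups were far apart, and the difference was -1.45 ± 0.20 (SE; limma adjusted p = 0.00142). Nfkb2, the precursor of the noncanonical NF-kB subunit, fell by 0.92 ± 0.12 (SE; limma adjusted p = 8.71e-04), and the inhibitor of apoptosis gene Birc3 fell by 0.53 ± 0.12 (SE; limma adjusted p = 0.0194). Tnfaip3 and Nfkb2 passed in both subsets, Birc3 within replicates 1 and 2 but missed the threshold within replicates 3 to 5 (limma adjusted p = 0.0893). Edaradd, the adaptor of the ectodysplasin receptor, named here after its values were seen, went the other way within replicates 1 and 2, where it rose by 0.90 (limma adjusted p = 0.00176). It differed by 0.05 within replicates 3 to 5 and by 0.39 over the 10 arrays (limma adjusted p = 0.388). Birc3 had an adjusted p of 0.0513 by limma without vehicle 5. The initiator caspase gene Casp8 differed by -0.32 with groups that did not overlap and did not pass (limma adjusted p = 0.0695). The noncanonical kinase gene Map3k14 (NIK) differed by 0.11, Relb by -0.17, the death adaptor gene Fadd by -0.03 and the caspase inhibitor gene Cflar by 0.14.

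**Figure D4:**
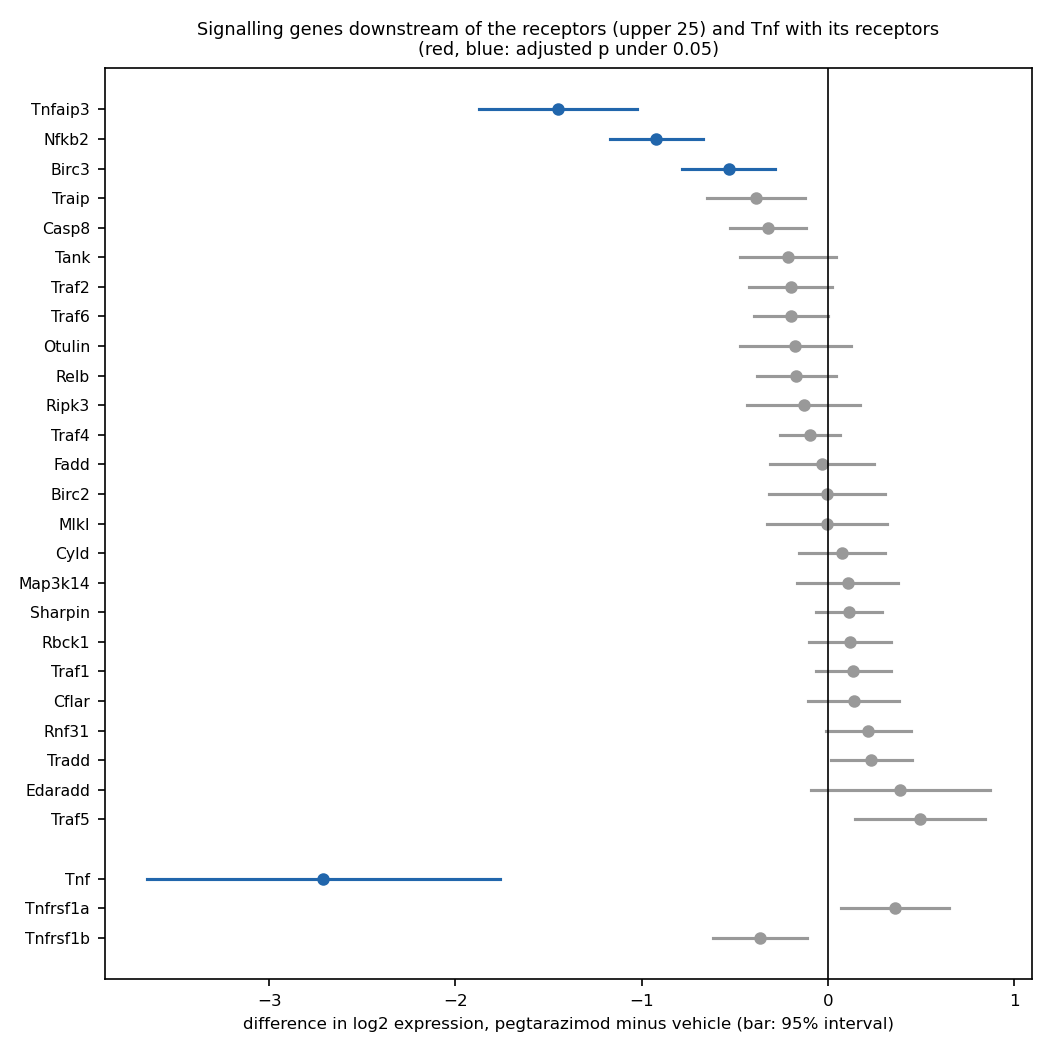
Difference in log2 expression (horizontal axis, pegtarazimod minus vehicle) with its 95% interval from limma for the 25 signalling genes and, below them, Tnf and its receptors; blue marks adjusted p below 0.05 and a lower mean. Tnfaip3, Nfkb2, Birc3 and Tnf are the 4 blue genes, and no gene passed with a higher mean.

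For comparison, the Tnf transcript was 6.54-fold lower with pegtarazimod, while its receptors Tnfrsf1a and Tnfrsf1b differed by 0.36 and -0.36 and did not pass (limma adjusted p = 0.158 and 0.0983). The groups overlapped for Tnfrsf1a and did not for Tnfrsf1b. With replicates 1 and 2 against 3 to 5 as a block both receptors passed (limma adjusted p = 0.0297 and 0.0452), and Tnfrsf1b also passed within replicates 1 and 2 (-0.61, limma adjusted p = 0.0292).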

How the data were processed

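RNA from 10 organoid samples was measured on 10 single-colour arrays, 5 per group, grouped and numbered as in the sample titles. The authors deposited log2 expression, 1 value per probe set. Per the submitters' processing notes oligo and RMA were used, that is background correction, quantile normalisation over the arrays and a summary over probes, which hides a shift shared by most genes. Tool versions and the build were not given in the sources used here. Of 22203 probe sets 19572 had 1 gene symbol in a platform annotation, 0 several, and 2631 were unnamed and left out. The brightest probe set stood for each of 19505 genes. All 19572 gene identifiers matched a GRCm38.p6 gene table, used for names and gene order.

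The 2 groups were compared in limma 3.58.1 under R 4.3.3 (lmFit and eBayes with the group as sole term). The Benjamini-Hochberg adjustment ran over 19505 genes. Differences within replicates 1 and 2 and within replicates 3 to 5 came from 4 groups with a pooled spread. The members, the signalling list, the markers and the alternatives were chosen with earlier results of these data known, and the motifs after these values were seen. Every member that passed, or had an unadjusted p below 0.05 or groups that did not overlap, the partners of those that passed and the signalling genes that passed were named with values, others by role. No detection calls were used, and the number of arrays limits the precision. The fit was tested on simulated data with independent noise on each array. These held no split between replicates 1 and 2 and replicates 3 to 5, so the test does not cover that split. Figures were drawn with matplotlib 3.10.9 in Python 3.11.15.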

Additional observations from a re-analysis of the deposited data

Results flagged for a closer look

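A group of 5 arrays was marked where its highest or lowest array was separated from the nearest other by more than 0.71 of the group's whole range (Dixon's ratio), which chance gives in about 1 of 20 groups. Of 80 groups of member values 2 were marked. Lta on pegtarazimod 5 read 5.80 against 6.26 to 6.42 on the other pegtarazimod arrays (ratio 0.742). Tnfrsf13c on vehicle 3 read 5.42 against 5.09 to 5.17 on the other vehicle arrays (ratio 0.759).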

How the results depend on the processing

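Of 5 members that passed, all 5 also passed after renewed quantile normalisation, with arrays centred on their medians and with array weights. With the replicate block 8 members (5 lower) and 1606 genes passed, and with replicates 1 and 2 against 3 to 5 as a block 8 (5 lower) and 1820, in each case the 5 with Tnfrsf12a, Tnfsf15 and Tnfrsf11b. Same-numbered arrays deviated together with r of 0.0993 to 0.310 over genes, above 0.1 in 4 of 5 pairs. In those 4 the vehicle array correlated best with its own number, by little for replicate 5 (0.130 against 0.129 for the best other), whereas vehicle 3 (0.0993) did so with pegtarazimod 4. Not every pair exceeded 0.1, with replicate 3 just under it, and by that rule the numbers were not taken as pairs. Whether they are pairs was not tested. Same-numbered arrays also lie on the same side of the split between replicates 1 and 2 and replicates 3 to 5. The part of that split in r was not tested. Tnfrsf1a passed with the replicate block (limma adjusted p = 0.0382). Within replicates 1 and 2, 1 member passed by limma (1 higher, 0 lower, 5 lower at an unadjusted p below 0.05), and within replicates 3 to 5 the count of higher members was 1. Leaving out the dimmest 50% of genes removed Fas and Tnfsf13b and left 16 members among 9752 genes. It gave 1 higher and 4 lower members, with 1296 of all genes passing. An intensity trend with robust priors gave 2 higher and 4 lower, with 1126 of 19505 genes passing. It ended the call of Fas (limma adjusted p = 0.0520). Leaving out 1 array gave 2 to 6 members (0 to 2 higher, 2 to 4 lower; the 0 was without vehicle 3, with 3 higher at an unadjusted p below 0.05) and 437 to 1245 genes. Over all settings tried Fas passed in 9 of 20 and Tnfsf13b in 14 of 20, Ltbr in 19 of 21, Tnfrsf19 and Tnfsf10 in 20 of 21, and Tnfrsf12a in 9, Tnfsf15 in 5 and Tnfrsf11b in 2 of 21. Of all 40 members 9 had opposite signs in the subsets (Edar, Relt, Tnfrsf4, Tnfrsf8, Tnfrsf9, Tnfrsf17, Tnfrsf23, Tnfsf4 and Tnfsf8). Among the genes refitted under every setting the sign turned for Tnfrsf23 (0.42) and Tnfrsf17 (0.16) within replicates 1 and 2, and without 1 array for Tnfrsf22 (-0.18 to 0.0398), Tnfrsf23 (-0.17 to 0.0339) and Tnfrsf17 (-0.12 to 0.0117), none of which passed. Causes were not tested.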

Other observations

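Several superfamily genes are direct neighbours in the genome. Ltb, Tnf and Lta follow each other with no other protein-coding gene between them. Tnf fell by 2.71 (95% interval -3.66 to -1.76), whereas Lta differed by -0.21 (-0.46 to 0.04) and Ltb by -0.10 (-0.32 to 0.13), and neither passed. Ltbr and Tnfrsf1a, separated by 1 protein-coding gene, differed by 0.55 and 0.36. Ltbr passed, and Tnfrsf1a passed with the replicate number (limma adjusted p = 0.0382) or replicates 1 and 2 against 3 to 5 (0.0297) as a block and not without one (0.158). Tnfsf15 and its neighbour Tnfsf8 differed by -0.55 and 0.10, and neither passed (limma adjusted p = 0.0639 and 0.741). Tnfsf8 lay below the lower quartile in both groups, so its value is uncertain.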
